A study of Mus musculus with 53 samples.

Results

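Clu, Gja1, Msln and Basp1 are markers of foetal-like or regenerating intestinal epithelium that lie outside the Ly6 and annexin families. They were chosen by symbol, by mapping the Ensembl identifiers of the count table to gene names, and each symbol matched 1 row, giving 4 of the 55421 rows. All 4 were counted in 53 libraries of mouse intestine in 11 groups, sequenced as bulk RNA-seq, in which the RNA of a whole piece of tissue is read as a mixture of its cells. Reads counted on genes ran from 516985 to 32824795 per library, and the group medians from 15655851 to 21715982.

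Every mouse, controls included, carried VilCreER+, a Cre recombinase driven by the Villin promoter that is active in intestinal epithelial cells and is switched on by tamoxifen. WT mice carried this transgene alone. BA mice were BrafV600E/+ Alk5fl/fl, which adds an activated BRAF kinase and removes the TGFβ receptor ALK5 (gene Tgfbr1), and A mice were Alk5fl/fl only. Proximal colon was taken from WT (n = 3), as endpoint BA tumours (n = 4), and at 30 days after induction from WT (n = 4), A (n = 4), A given sulindac, an inhibitor of prostaglandin synthesis (n = 4), BA (n = 5) and BA given ampicillin, neomycin, metronidazole and vancomycin in the drinking water (n = 5). Small intestine was taken 4 days after induction from Apcfl/fl mice (n = 10) and WT mice (n = 6), and without a stated day from WT mice (n = 3) and as tumours of Apcfl/+ mice (n = 5). Sulindac was given in the drinking water for the first 14 days after induction and then withdrawn, so day 30 followed its end. The study used it to wound and inflame the proximal colon. All mice were adult. The labels give a mixed C57BL/6J background, except for Apcfl/+ tumours and their WT small intestine, which were from inbred mice. The counts are of whole genes and read neither the V600E change nor the loss of floxed exons, so they do not check the genotypes. The study's methods describe replicates as samples from independent animals, while the labels do not name the animal of each library.

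After injury the intestinal epithelium can return for a time to a state that resembles the foetal gut, in which genes of the adult stem cell are low and a distinct set of surface and secreted proteins is made. Clusterin (Clu), a secreted chaperone that binds misfolded proteins and lipids, marks the rare revival stem cells that expand after crypt damage. Mesothelin (Msln) is a glycoprotein attached to the cell surface by a lipid anchor, made in the adult by the mesothelium that covers the gut and in many carcinomas. Connexin 43 (Gja1) forms gap junction channels between neighbouring cells and is made by muscle, endothelial, glial and other stromal cells as well as by epithelium. BASP1 (Basp1) is a myristoylated protein of the inner face of the plasma membrane, best known from growing axons, which also acts as a transcriptional corepressor in the nucleus.

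In GRCm38 with the GENCODE M21 annotation, Clu (ENSMUSG00000022037) lies on the plus strand of chromosome 14 from 65968483 to 65981547 and Gja1 (ENSMUSG00000050953) on the plus strand of chromosome 10 from 56377330 to 56402513. Msln (ENSMUSG00000063011) lies on the minus strand of chromosome 17 from 25748613 to 25754378 and Basp1 (ENSMUSG00000045763) on the minus strand of chromosome 15 from 25363277 to 25413764. No exon of the 4 genes overlaps an exon of another gene on either strand. Of the 36-base words of their exons, the length of a read, none of Clu or Basp1, 0.91% of Gja1 and 3.36% of Msln occur in another gene.

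The promoters of Gja1 and Basp1, the 2 of the 4 with an entry in the RefSeq promoter table, are shown because these genes parted in the day 30 BA colon. Each is the 250 bases before the start site in GRCm38.p6, written 5′ to 3′ on the strand of the gene, and capitals mark a match to the AP-1 motif TGANTCA, where N is any base. Both strands were searched for this motif, for the TEAD core GGAATG and for the TCF/LEF core CTTTGA. Gja1 lies at chr10:56377050-56377299 on the plus strand and Basp1 at chr15:25413765-25414014 on the minus strand.
Gja1: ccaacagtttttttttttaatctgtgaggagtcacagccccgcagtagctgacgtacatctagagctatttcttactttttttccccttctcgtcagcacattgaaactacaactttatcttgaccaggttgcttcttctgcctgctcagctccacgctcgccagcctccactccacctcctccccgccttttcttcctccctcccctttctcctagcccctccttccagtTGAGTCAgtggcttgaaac
Basp1: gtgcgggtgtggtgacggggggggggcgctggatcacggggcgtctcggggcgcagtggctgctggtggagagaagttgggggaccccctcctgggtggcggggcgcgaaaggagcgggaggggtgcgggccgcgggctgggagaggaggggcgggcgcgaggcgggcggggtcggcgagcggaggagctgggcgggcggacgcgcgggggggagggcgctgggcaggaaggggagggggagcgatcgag
Gja1 held 1 AP-1 match, which is the stretch in capitals, and no TEAD or TCF/LEF match. Basp1 held no match to any of these motifs. Of 32851 promoters of this length, 6.75% held an AP-1 match, 12.6% a TEAD match and 13.8% a TCF/LEF match. The bases G and C made up 50.0% of the Gja1 promoter and 78.8% of the Basp1 promoter. These matches describe the letters only.

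Levels are given as normalised CPM, read counts scaled to a common library total (CPM) after TMM normalisation, and changes as log2 fold changes with the standard error (SE) of the fit. All p-values are from edgeR's quasi-likelihood test, two-sided and adjusted by the Benjamini-Hochberg method over all genes tested in a comparison, and a gene is said to have risen or fallen where the adjusted p is under 0.05. In bulk tissue, fewer cells of a type and less RNA per cell cannot be told apart.

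Some libraries stood apart and were left out in a second fit, a choice made after their values were seen. Since the choice drew in part on the levels of the 4 genes, the adjusted p of this second fit are descriptions and not tests. Replicate 5 of Apcfl/fl had the highest Clu, Msln, Basp1 and Gja1 of its group, and replicate 1 of Apcfl/fl had only 516985 reads. Replicate 3 of the antibiotic group had a summed level of 8 fibroblast markers of 8450 CPM, against 1660 to 2090 CPM in d30 WT. Summed over 5 genes of lymphoid follicles (Cr2, Fcer2a, Ms4a1, Cd79a and Cxcl13), replicate 4 of WT small intestine at day 4 stood at 171 CPM (the others at 12.4 to 21.1), replicate 1 of WT small intestine at 123 CPM (the others at 7.46 and 8.81) and replicate 8 of Apcfl/fl at 105 CPM (the others at 3.78 to 8.95). Reads of Gm13394 exceeded 10 CPM in all 18 day 30 A and BA libraries and in none of d30 WT, so that at day 30 whatever sets this gene cannot be told apart from genotype.

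**Figure D1:**
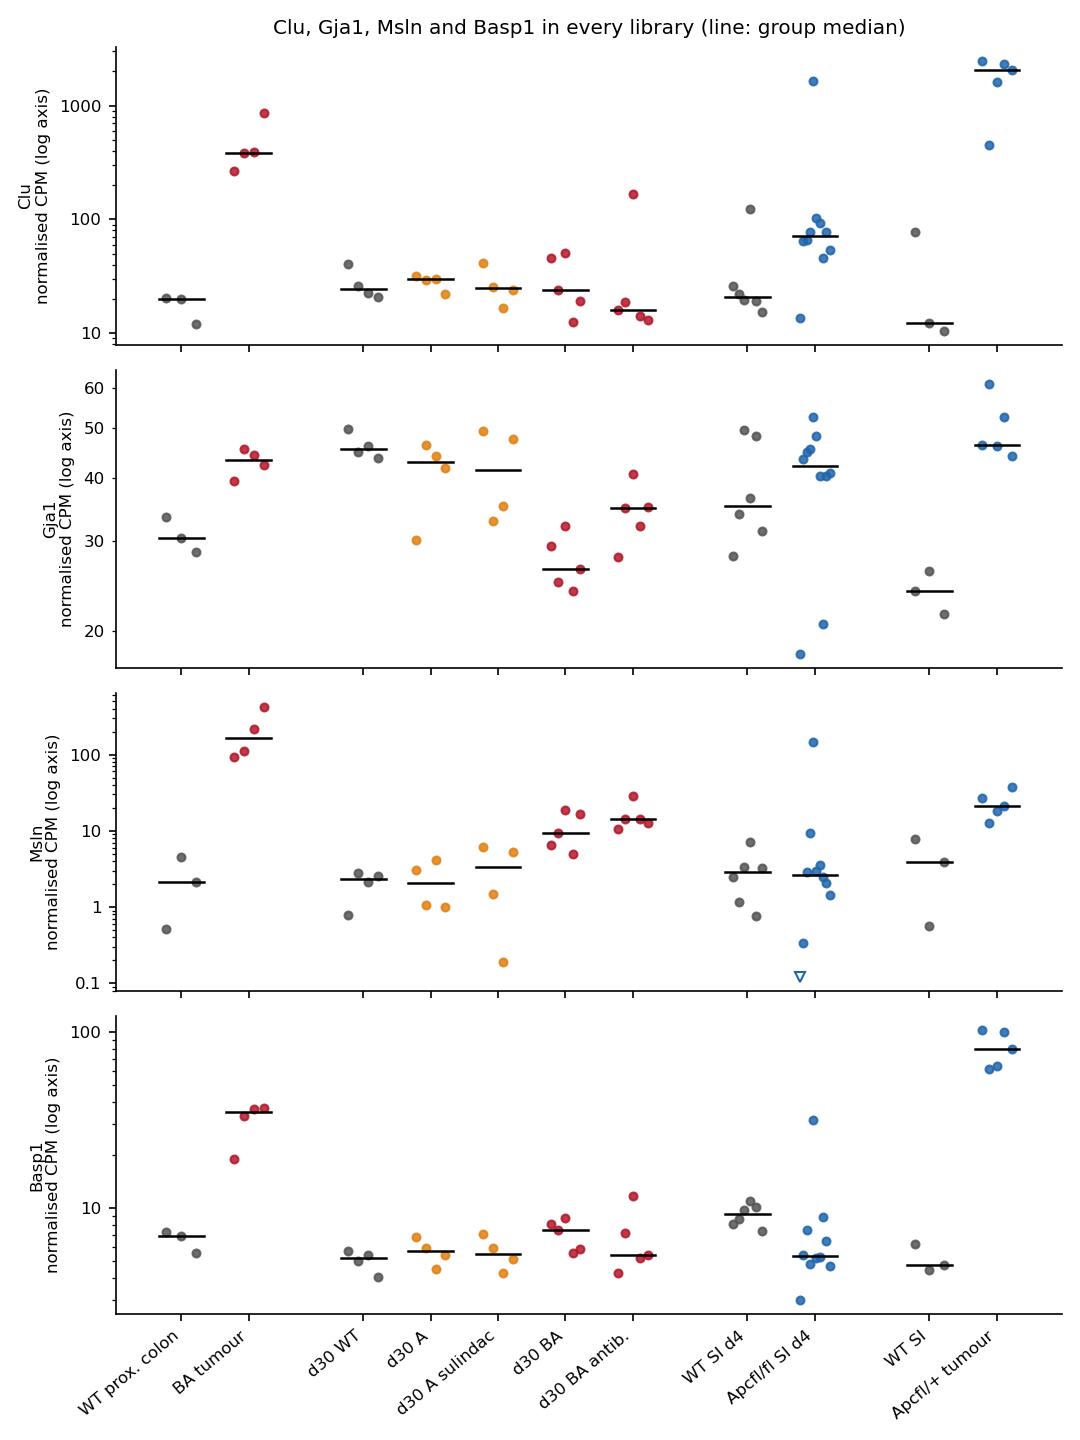
Normalised CPM of Clu, Gja1, Msln and Basp1 (one panel each, log axes) in each of the 53 libraries, grouped along the horizontal axis, with a line at the group median and an open triangle for the Apcfl/fl library with 0 Msln reads. Clu and Basp1 are highest in Apcfl/+ tumours, Msln is highest in BA tumours, and Gja1 spans only 18.0 to 61.2 CPM.

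Clu, Msln and Basp1 rose in endpoint BA tumours over WT proximal colon, by 27.6-fold, 89.7-fold and 4.87-fold. These were 3 of the 4 genes, where 7.46% of the 19188 genes tested rose and 13.2% were called in either direction. Gja1 was at 1.41-fold of WT and did not pass the test. All 4 had every BA tumour above every WT library, which held for 27.1% of the genes tested in either direction.

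Clu, the marker of revival stem cells, was at 266, 385, 389 and 862 CPM in the BA tumours, while the WT libraries had 20.5, 19.9 and 12.0 CPM. The lowest tumour was above 10 times the highest WT library. The log2 fold change was 4.79 ± 0.5 (SE, adjusted p = 0.00128).

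Msln, the surface glycoprotein, stood at 92.2, 112, 215 and 427 CPM in the tumours and at 0.508, 4.6 and 2.14 CPM in WT. Tumour replicate 4 was the highest in both Msln and Clu, and the groups were far apart. Msln changed by a log2 of 6.49 ± 0.9 (SE, adjusted p = 0.00347), the largest of the 4 genes.

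Basp1, the membrane and nuclear protein, stood at 19.1, 33.5, 36.7 and 37.0 CPM in the tumours and at 7.28, 6.96 and 5.58 CPM in WT. Tumour replicate 1 was the lowest in Basp1, Clu, Msln and Gja1. Basp1 changed by a log2 of 2.28 ± 0.29 (SE, adjusted p = 0.00248).

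Gja1, the gap junction protein, stood at 39.4, 45.5, 44.3 and 42.3 CPM in the tumours and at 33.5, 30.53 and 28.6 CPM in WT. The tumours were above WT without overlap, by less than the distances of the other 3 genes. Its log2 fold change was 0.5 ± 0.17 (SE, adjusted p = 0.0841).

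Counted per kilobase of exon, so that genes can be set beside each other, Clu led in BA tumours with a mean of 138 RPKM, followed by Msln at 69.1 RPKM, Basp1 at 15.7 RPKM and Gja1 at 4.18 RPKM. In WT proximal colon Clu stood at 5.08 RPKM, Basp1 at 3.29 RPKM, Gja1 at 3.01 RPKM and Msln at 0.789 RPKM. Msln was thus the lowest of the 4 in the normal tissue and the second highest in the tumours.

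Of 13 other foetal and revival genes, 12 rose and none fell in BA tumours, with a median log2 fold change of 2.84 beside 0.03 over all genes tested. Some of these genes were named by the study for their levels in these tumours, so the count is not independent evidence of its direction. Spp1, a secreted matrix protein (7.22 ± 1.16), and Ccn2, a YAP target (4.47 ± 0.54), were among the largest, with Ly6a, a surface protein of foetal spheroids (3.0 ± 0.48), and Anxa1, an annexin of repairing epithelium (2.84 ± 0.47). Cxadr, an adhesion receptor and revival marker, was at 0.12 ± 0.38 (SE, adjusted p = 0.867).

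Genes of the same families were less uniform. The clusterin receptors Lrp8 (2.23 ± 0.33, adjusted p = 0.00452) and Vldlr (1.14 ± 0.32, adjusted p = 0.0475) rose in BA tumours. Mslnl, the mesothelin-like gene, rose by 3.01 ± 0.8 (SE, adjusted p = 0.0396). Mslnl stood at 0 to 0.288 CPM in WT, near the floor (3 counts, 0.139 CPM), and at 0.72 to 1.99 CPM in tumours, so the size of its change is not fixed. Muc16, the mucin that binds mesothelin, was at -4.11 ± 1.36 (SE, adjusted p = 0.0805), with WT libraries spread from 1.35 to 69.9 CPM. Of 7 other connexins tested none passed, with Gjb5 at 2.01 ± 0.72 (adjusted p = 0.1). Of 3 proteins built like BASP1, Marcksl1 rose by 2.53 ± 0.34 (adjusted p = 0.00325), and neither Marcks (0.25 ± 0.18) nor Gap43 (-1.53 ± 0.67) passed the test.

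Markers of other cells moved in the same tumours. Of 9 immune markers 6 rose, with a summed level of 240 to 432 CPM in tumours and 118 to 179 CPM in WT. The 8 fibroblast markers summed to 4460 to 5700 CPM against 1910 to 2820 CPM, 2 of them higher and 1 lower. Of 5 mesothelial markers tested none passed, and their sums overlapped, at 13.6 to 26.2 CPM in tumours and 11.1 to 26.5 CPM in WT. The lymphoid follicle list summed to 15.6 to 32.9 CPM in tumours and 3.05 to 6.44 CPM in WT, and 3 of its 5 genes rose. Of 6 endothelial markers 3 rose (111 to 250 CPM against 78.6 to 101 CPM, without overlap), and 3 of 8 smooth muscle markers fell, with a median of -1.21. The part of these cells in the changes of the 4 genes was not tested. Ddx3y, a Y-linked gene, and Gm13394 each exceeded 10 CPM in 3 of 4 tumours and none of the 3 WT libraries. With a term for Ddx3y the estimates were 3.92 for Clu, 5.26 for Msln and 1.52 for Basp1. These rest on the only tumour without such Ddx3y reads, so they cannot separate the tumours from the Ddx3y difference.

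All 4 genes rose in Apcfl/+ tumours of the small intestine over WT small intestine, Clu by 50.4-fold, Basp1 by 14.7-fold, Msln by 5.28-fold and Gja1 by 1.95-fold. In this comparison 31.4% of 20567 genes rose, 61.5% were called in either direction, and 59.4% had groups that did not overlap, as all 4 did. The count has to be read against these shares, since most genes differed here.

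Clu stood at 2490, 454, 1620, 2330 and 2050 CPM in the Apcfl/+ tumours and at 77.3, 12.2 and 10.4 CPM in WT. Tumour replicate 2 was well below the other tumours and still above every WT library, and WT replicate 1, the library with high lymphoid follicle genes, was the highest of WT. The log2 fold change was 5.66 ± 0.96 (SE, adjusted p = 0.00115), and 7.2 ± 0.846 (adjusted p = 0.00068) without that WT library. Clu is also made by follicular dendritic cells, the stromal cells of lymphoid follicles.

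Basp1 stood at 103, 61.6, 64.1, 99.7 and 79.6 CPM in the tumours and at 6.26, 4.45 and 4.78 CPM in WT. The change of 3.88 ± 0.23 (SE, adjusted p = 1.31e-05) had the smallest adjusted p of the 4 genes. Every tumour was above every library of any other group.

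Msln stood at 26.9, 12.5, 18.1, 20.9 and 37.3 CPM in the tumours and at 7.87, 0.557 and 3.85 CPM in WT. The tumours were higher without overlap, with a change of 2.4 ± 0.68 (SE, adjusted p = 0.0141). Without WT replicate 3 the change of 2.38 was no longer called (adjusted p = 0.0528), and without WT replicate 1 it was 3.28 ± 0.762 (adjusted p = 0.00933). Summed over the mesothelial markers other than Upk1b, the tumours were at 1.76 to 5.53 CPM and WT at 1.97 to 15.7 CPM, with overlap.

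Gja1 stood at 46.4, 61.2, 46.1, 52.6 and 44.1 CPM in the tumours and at 24.0, 26.2 and 21.6 CPM in WT. Tumour replicate 2, lowest in Clu, Msln and Basp1, was the highest in Gja1. The change was 0.97 ± 0.13 (SE, adjusted p = 0.000406).

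The 13 companion genes all rose in Apcfl/+ tumours, with a median of 2.89 beside 0.03 over all genes. Ankrd1, a YAP target, had the largest estimate (7.15 ± 1.4). It stood at 0 CPM in every WT library and at 0.371 to 1.81 CPM in tumours, so the size of its change is not fixed. Spp1 came next (6.9 ± 0.63), at 0.518 to 0.962 CPM in WT and 42.2 to 195 CPM in tumours. Cxadr changed least (0.33 ± 0.11, adjusted p = 0.0311). Of 8 other connexins 5 rose, with the largest estimates for Gjd3 (3.28 ± 0.78) and Gjb5 (2.79 ± 0.74). Both were near the floor in WT (3 counts, 0.161 CPM), Gjd3 at 0.0471 to 0.0506 CPM and Gjb5 at 0 to 0.377 CPM. Marcksl1 rose by 3.95 ± 0.25 (adjusted p = 1.46e-05), Gap43 fell by 0.82 on the log2 scale with an SE of 0.22 (adjusted p = 0.0119), and Muc16 was at -4.21 ± 0.61 (adjusted p = 0.000494). Fibroblast markers rose too, 5 of 8, from 1250 to 1600 CPM in WT to 3130 to 3860 CPM in tumours. Of 6 endothelial markers 4 rose, from 135 to 147 CPM to 244 to 317 CPM, while 4 of 8 smooth muscle and 3 of 4 glia markers fell. The part of these cells in the changes of the 4 genes, Gja1 included, was not tested. Ddx3y exceeded 10 CPM in all 3 WT libraries and 1 of 5 tumours. With a term for it the change of Msln was 2.61, an estimate that rests on the only tumour over 10 CPM.

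Msln and Basp1 differed between the tumour types in opposite directions when each type was set against its own WT. The difference of effects, BA minus Apcfl/+, was 4.13 ± 1.05 (SE, adjusted p = 0.00773) for Msln and -1.57 ± 0.33 (SE, adjusted p = 0.0027) for Basp1. These were 2 of the 4 genes, where 39.7% of all genes tested were called. Clu differed by -0.84 ± 0.91 (SE, adjusted p = 0.48), which became -2.39 ± 0.754 (adjusted p = 0.029) without WT small intestine replicate 1. Gja1 differed by -0.44 ± 0.19 (SE, adjusted p = 0.0756). Per kilobase, Basp1 stood at 40.6 RPKM and Msln at 7.55 RPKM in Apcfl/+ tumours, the reverse of their order in BA tumours. The tumour types also differ in their tissue, strain background and Y-linked reads, which cannot be told apart from genotype here. Of the 13 companion genes 1 was called in each direction.

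**Figure D2:**
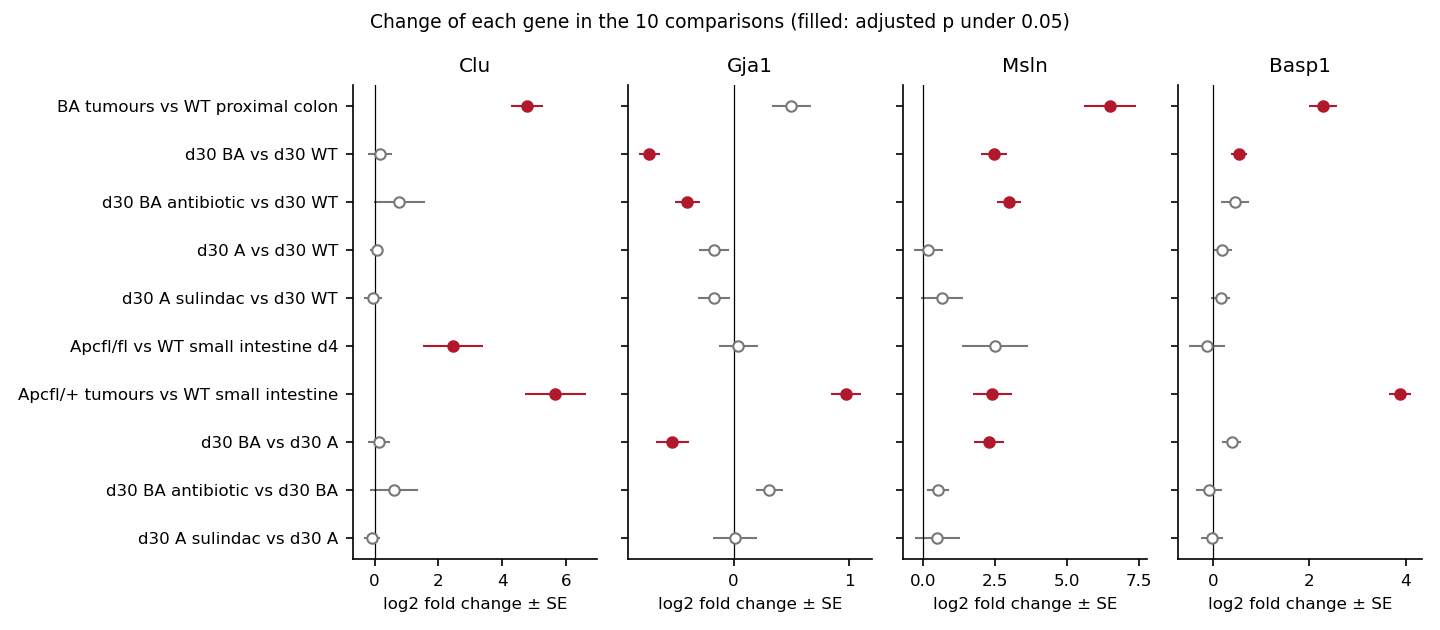
Log2 fold changes (points) with their SE (bars) of the 4 genes, one panel each on its own horizontal scale, in 10 comparisons, with filled points where the adjusted p is under 0.05. The 4 panels share a filled point on the right in Apcfl/+ tumours only, and Gja1 lies to the left of 0 in d30 BA, where Msln lies to the right.

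At 30 days after induction, before endpoint tumours, the BA colon differed from d30 WT in Msln, Gja1 and Basp1 and not in Clu by the test. Msln rose 5.48-fold and Basp1 1.44-fold, and Gja1 fell 1.65-fold. These were 3 of the 4 genes, where 25.8% of 17471 genes rose, 29.3% fell, 55.1% were called in either direction and 45.2% had groups that did not overlap, as 2 of the 4 did, so that most genes moved in this tissue.

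Msln stood at 6.44, 9.29, 19.0, 4.92 and 16.5 CPM in d30 BA and at 0.790, 2.77, 2.13 and 2.57 CPM in d30 WT. All d30 BA libraries were above all d30 WT libraries. The change was 2.45 ± 0.45 (SE, adjusted p = 0.000871) and stayed called with each library left out in turn.

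Mesothelial markers were measured beside Msln, since the mesothelium makes it. Of 4 tested, 3 fell, among them Upk3b (-1.78 ± 0.56), and 1 rose, Upk1b (2.61 ± 0.13), a uroplakin that is also made by epithelia. The full list summed to 19.7 to 24.3 CPM in d30 BA and 7.8 to 14.6 CPM in d30 WT. Without Upk1b, left out after values were seen, it summed to 1.21 to 4.68 CPM in d30 BA and 4.69 to 10.6 CPM in d30 WT. The direction of the sum thus depends on Upk1b, and the part of the mesothelium in the higher Msln was not tested. Muc16, the binding partner of mesothelin, was at -6.62 ± 0.49 (adjusted p = 1.26e-06), from 30.0 to 90.8 CPM in d30 WT to 0.122 to 1.36 CPM in d30 BA.

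Gja1 stood at 29.3, 25.0, 32.2, 23.9 and 26.5 CPM in d30 BA and at 49.8, 44.9, 46.1 and 43.8 CPM in d30 WT. The groups were separate, with d30 BA lower. The change was -0.73 ± 0.09 (SE, adjusted p = 5.45e-05), and each library left out in turn gave between -0.79 and -0.68.

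The other connexins moved both ways. Of 8 tested, 3 rose, all of the beta group found mainly in epithelia. They were Gjb5 (3.09 ± 0.24), Gjb1 (1.4 ± 0.14) and Gjb2 (1.22 ± 0.21). Gjb1, a connexin of liver and gut epithelium, went from 19.8 to 35.0 CPM in d30 WT to 60.6 to 76.4 CPM in d30 BA. Gjc3 (-1.87 ± 0.32) and Gjc1 (-1.06 ± 0.13) fell, the latter from 8.85 to 10.3 CPM to 3.61 to 5.31 CPM. The median over the 8 was -0.38 beside -0.03 over all genes tested.

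The tissue makeup read by marker lists also moved. Of 10 epithelial markers 8 rose, with sums of 22400 to 25900 CPM in d30 BA and 12200 to 14100 CPM in d30 WT. None of 8 fibroblast markers rose and 7 fell (1150 to 1430 CPM against 1660 to 2090 CPM), 6 of 8 smooth muscle markers fell, and all 7 enteric neuron and all 4 enteric glia markers fell, as did 3 of 6 endothelial markers. Their part in the lower Gja1, and that of epithelium in the higher Msln, was not tested.

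Basp1 stood at 8.17, 7.54, 8.78, 5.53 and 5.87 CPM in d30 BA and at 5.74, 5.02, 5.40 and 4.07 CPM in d30 WT. Replicate 4 of d30 BA lay below d30 WT replicate 1, so that the groups overlapped by this pair. The change of 0.53 ± 0.17 (SE, adjusted p = 0.0223) was small, and it was lost without d30 BA replicate 1 or 3 or without d30 WT replicate 4 (0.44 to 0.61 with each library left out in turn). Among its structural relatives Marcksl1 rose by 2.31 ± 0.3 (adjusted p = 6.76e-05), Gap43, a protein of axon growth cones, fell by 1.26 on the log2 scale with an SE of 0.36 (adjusted p = 0.0107), and Marcks was at 0.01 ± 0.08 (adjusted p = 0.939).

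Clu stood at 45.4, 23.8, 50.6, 12.5 and 19.3 CPM in d30 BA and at 40.6, 26.2, 22.6 and 20.6 CPM in d30 WT. The d30 BA libraries lay on both sides of d30 WT. The difference was 0.16 ± 0.37 (SE, adjusted p = 0.724), which leaves room for changes in either direction. Its receptor Lrp8 rose by 1.21 ± 0.22 (adjusted p = 0.000904).

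Of 12 companion genes tested at day 30, 8 rose and none fell, with a median of 1.13 beside -0.03. Anxa1 (3.52 ± 0.13), Ly6a (3.38 ± 0.11) and Plaur, the urokinase receptor (2.63 ± 0.16), were high, while Ccn2 (-0.26 ± 0.23, adjusted p = 0.357) and Spp1 (0.41 ± 0.7, adjusted p = 0.641) did not pass. Some of these genes, too, were named by the study from these samples.

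All 4 genes differed between endpoint tumours and day 30 when the BA effect over WT was compared between the stages, where 9.87% of genes tested had a larger effect in tumours and 16.3% were called in either direction. The tumour effect was larger by 4.6 ± 0.62 for Clu (adjusted p = 0.000245), 4.05 ± 0.91 for Msln (adjusted p = 0.00669), 1.74 ± 0.3 for Basp1 (adjusted p = 0.00127) and 1.22 ± 0.15 for Gja1 (adjusted p = 0.000154). For Gja1 this is a change of direction in the estimates, from lower at day 30 to higher in tumours, the latter not called on its own. The WT groups also differed in Gja1, at 28.6 to 33.5 CPM in WT proximal colon and 43.8 to 49.8 CPM in d30 WT. BA tumours, at 39.4 to 45.5 CPM, were above d30 BA at 23.9 to 32.2 CPM but not above d30 WT. The change of direction thus depends on each stage having its own WT. Of the 13 companions 5 also had a larger effect in tumours, led by Spp1 (6.81) and Ccn2 (4.71). Fibroblast (5 of 8) and immune markers (6 of 9) also had a larger effect in tumours and epithelial markers a smaller effect (5 of 10), and their part in the result was not tested. Reads of Ddx3y were over 10 CPM in every day 30 library, in 3 of 4 BA tumours and in none of the 3 WT proximal colon libraries.

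Against d30 A, which shares the Alk5 deletion and lacks the BRAF mutation, d30 BA was higher in Msln by 2.3 ± 0.52 (SE, 4.93-fold, adjusted p = 0.00425) and lower in Gja1 by a log2 of -0.53 ± 0.14 (SE, 1.44-fold, adjusted p = 0.00861). These were 2 of the 4 genes, where 45.3% of genes tested were called. Msln in d30 A stood at 3.06, 1.07, 4.15 and 0.995 CPM, all below the lowest d30 BA library. Gja1 in d30 A stood at 30.17, 46.4, 44.1 and 41.7 CPM, where replicate 1 fell within d30 BA, so that only Msln had groups without overlap (35.8% of genes tested). Clu (0.14 ± 0.35, adjusted p = 0.771) and Basp1 (0.38 ± 0.19, adjusted p = 0.114) did not pass. Of the markers of other cells, 8 of 10 epithelial markers were higher in d30 BA than in d30 A, and 6 of 7 neuron, 3 of 4 glia, 5 of 8 fibroblast and 3 of 8 smooth muscle markers were lower. Their part in the changes of Gja1 and Msln was not tested. Both groups had Gm13394 over 10 CPM in every library.

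In d30 BA mice given antibiotics, Msln was again higher than in d30 WT and Gja1 lower. These were 2 of the 4 genes, where 39.6% of genes tested were called, and the same 2 had groups without overlap (34.1% of genes tested). The comparison shares its d30 WT libraries with that of untreated d30 BA.

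Msln stood at 10.5, 14.4, 28.6, 14.2 and 12.6 CPM with antibiotics. Replicate 3 was well above the others, which lay in a narrow band above all of d30 WT. The change over d30 WT was 2.99 ± 0.41 (SE, 7.93-fold, adjusted p = 0.000278), and 2.65 ± 0.298 (adjusted p = 5.93e-05) without replicate 3. The full mesothelial list summed to 92.7 CPM in replicate 3. Without Upk1b the list ran from 1.62 to 80.5 CPM with antibiotics (median 3.73) and from 4.69 to 10.6 CPM in d30 WT. The part of the mesothelium in the higher Msln was not tested.

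Gja1 stood at 27.9, 34.8, 40.7, 32.2 and 35.0 CPM, with replicate 3 the highest and all below d30 WT. The change was -0.4 ± 0.11 (SE, 1.32-fold lower, adjusted p = 0.0142). Gjb5, a connexin that also rose in untreated d30 BA, was 2.67 ± 0.28 over d30 WT, and Muc16 was at -4.19 ± 0.61. Of 10 epithelial markers 8 rose over d30 WT, and 2 of 4 glia, 1 of 7 neuron and 1 of 6 endothelial markers fell, and their part in these changes was not tested.

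Clu stood at 15.9, 18.6, 166, 14.0 and 13.1 CPM. Replicate 3 was far above the other 4, which were all below every d30 WT library. With all libraries the change was 0.78 ± 0.79 (SE, adjusted p = 0.464), and without replicate 3 it was -0.82 ± 0.203 (SE, adjusted p = 0.00755). Replicate 3 was left out after its values were seen, so the lower value is a description and not a call. In replicate 3 the fibroblast markers summed to 8450 CPM, the mesothelial markers to 92.7 CPM and the immune markers to 210 CPM, the highest of the group in each, and the follicle list to 5.59 CPM. The part of these cells in its Clu level was not tested. Basp1 stood at 4.30, 7.19, 11.7, 5.21 and 5.45 CPM, again with replicate 3 highest, and its change of 0.46 ± 0.29 (adjusted p = 0.234) did not pass.

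Set directly against untreated d30 BA, none of the 4 genes passed with antibiotics, where 13% of genes tested were called. The differences were 0.61 ± 0.76 for Clu (adjusted p = 0.614), 0.31 ± 0.12 for Gja1 (adjusted p = 0.1), 0.52 ± 0.39 for Msln (adjusted p = 0.378) and -0.08 ± 0.27 for Basp1 (adjusted p = 0.857). Without replicate 3 of the antibiotic group Clu was at -0.99 ± 0.359 (adjusted p = 0.0853). Of 13 companions Anxa1 rose (0.41 ± 0.11), and Ly6a (-0.83 ± 0.12), Krt7, a simple epithelial keratin (-0.88 ± 0.15), and Ereg, an EGF receptor ligand (-0.95 ± 0.19), fell.

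**Figure D3:**
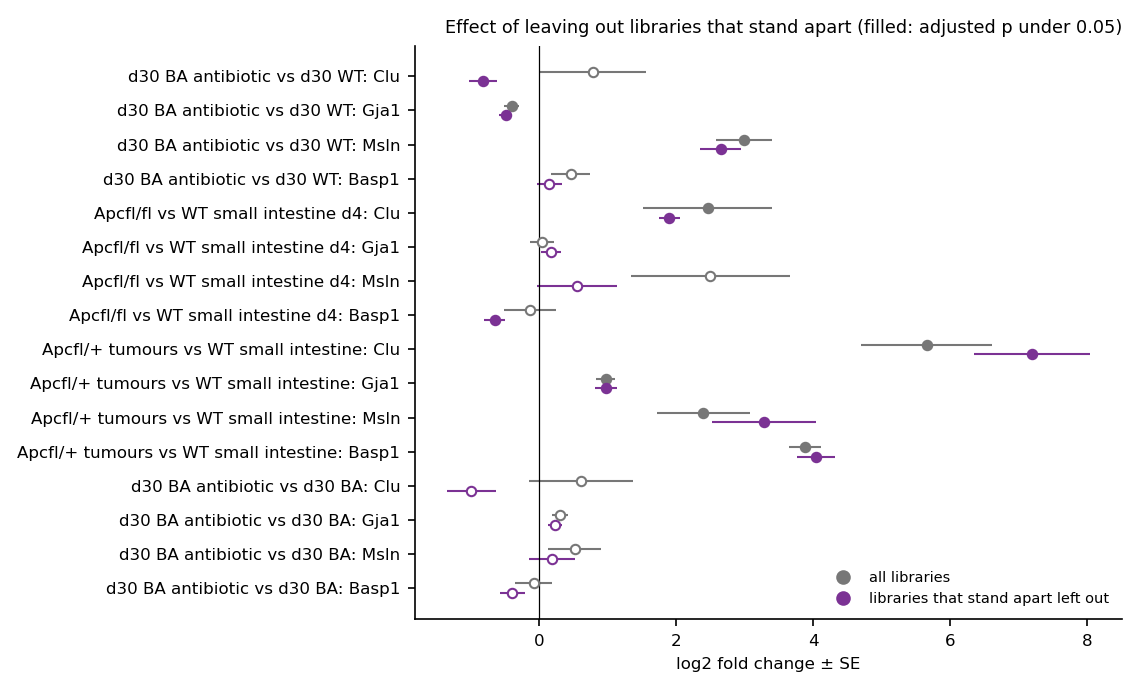
Log2 fold changes (points) with SE (bars) of the 4 genes in the 4 comparisons that hold libraries that stand apart, with all libraries (grey) and without them (purple), filled where the adjusted p is under 0.05. Clu changes side with antibiotics, from 0.78 to -0.82 over d30 WT, while the other 3 genes keep their sides in every pair shown.

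Loss of Alk5 alone left the 4 genes without a call. In d30 A against d30 WT, 0.141% of 17713 genes were called, and 0.0507% of 17742 genes in d30 A given sulindac, so that few genes of any kind passed. Clu stood at 31.6, 29.2, 30.12 and 21.9 CPM in d30 A and at 41.3, 25.5, 16.7 and 23.9 CPM with sulindac, both within or across the range of d30 WT. Their changes over d30 WT were 0.06 ± 0.21 (adjusted p = 0.917) and -0.04 ± 0.28 (adjusted p = 0.973).

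Gja1 with sulindac stood at 49.3, 32.8, 35.2 and 47.6 CPM, and its changes over d30 WT were -0.17 ± 0.13 without the drug and -0.17 ± 0.14 with it. Msln with sulindac stood at 6.18, 1.47, 0.189 and 5.29 CPM, the third of these from 3 reads, and was the most scattered of the 4 genes. Its changes were 0.19 ± 0.51 in d30 A (adjusted p = 0.89) and 0.66 ± 0.72 with sulindac (adjusted p = 0.764). Basp1 stood at 6.84, 5.96, 4.49 and 5.39 CPM in d30 A and at 7.09, 5.90, 4.29 and 5.12 CPM with sulindac, with changes of 0.19 ± 0.19 and 0.15 ± 0.2.

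Between d30 A with and without sulindac, edgeR called 0 of 17568 genes, with 460 at an unadjusted p under 0.05, and DESeq2 called 7. The 4 genes were at -0.08 ± 0.26 (Clu), 0.01 ± 0.19 (Gja1), 0.5 ± 0.78 (Msln) and -0.03 ± 0.23 (Basp1). Of the 12 companion genes tested against d30 WT none passed in d30 A or with sulindac, with medians of 0.37 and 0.61.

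At 4 days after Apc loss in the small intestine, Clu was 5.52-fold higher than in WT small intestine by the fit. It was the only gene of the 4 called, where 27.5% of 17536 genes rose and 54.2% were called in either direction. Its call depended on which libraries were kept. Clu ran from 13.5 to 1640 CPM in the 10 Apcfl/fl libraries, with a median of 71.5 CPM, and from 15.2 to 124 CPM in the 6 WT libraries, with a median of 20.8 CPM. The groups overlapped through the shallow Apcfl/fl replicate 1 at the bottom and WT replicate 4 at the top.

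Clu changed by a log2 of 2.46 ± 0.94 (SE, adjusted p = 0.0338). The call was lost without Apcfl/fl replicate 5, the library at 1640 CPM (0.78, adjusted p = 0.144), without any of WT replicates 1, 2, 3, 5 and 6 (adjusted p from 0.0659 to 0.0685), and with a term for Ddx3y (1.41, adjusted p = 0.281) or for Gm13394 (1.99, adjusted p = 0.0504). Without the 4 libraries that stand apart it was 1.9 ± 0.151 (SE, adjusted p = 1.02e-06). This choice removed the highest Clu library of each group, which narrows the SE, so the value is a description only. WT replicate 4, at 124 CPM of Clu, was the library with lymphoid follicle genes at 171 CPM, while Apcfl/fl replicate 5 had 6.59 CPM of that list and 2750 CPM of fibroblast markers, the highest of its group. The part of these cells was not tested.

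Msln ran from 0 to 148 CPM in Apcfl/fl (median 2.67) and from 0.769 to 7.08 CPM in WT (median 2.86). The medians were near each other, and replicate 5 alone was above 10 CPM. No read of Msln was counted among the 516985 of replicate 1, which allows up to 5.8 CPM (3 counts), more than the median of either group. The change of 2.5 ± 1.16 (SE, adjusted p = 0.0757) was 0.55 ± 0.586 (adjusted p = 0.435) without the libraries that stand apart and -0.03 (adjusted p = 0.967) without replicate 5 alone.

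Basp1 ran from 3.00 to 31.8 CPM in Apcfl/fl (median 5.34) and from 7.42 to 11 CPM in WT (median 9.22), with replicate 5 again the highest. The change of -0.13 ± 0.38 (SE, adjusted p = 0.796) became -0.65 ± 0.15 (adjusted p = 0.0019) without the libraries that stand apart, and -0.65 (adjusted p = 0.00937) without replicate 5 alone. Replicate 5 was left out after its Basp1 was seen, so the lower value is a description and not a call. Gja1 ran from 18.0 to 52.7 CPM in Apcfl/fl (median 42.2) and from 28.1 to 49.7 CPM in WT (median 35.2), with a change of 0.04 ± 0.17 (adjusted p = 0.874).

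Markers of other cells fell in the same comparison, with 5 of 7 neuron, 3 of 4 glia, 5 of 6 endothelial and 5 of 8 immune markers lower. The immune markers summed to 83.9 to 166 CPM in Apcfl/fl and 216 to 297 CPM in WT, and the endothelial markers to 42.3 to 122 CPM and 134 to 170 CPM. Without the libraries that stand apart 5 of 7 neuron, 2 of 4 glia, 5 of 6 endothelial and 7 of 7 immune markers were lower. Their part in the lower Basp1 of the fits without these libraries was not tested.

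Of 12 companions 10 rose at day 4 and none fell, with a median of 1.79 beside 0 over all genes. Spp1 had the largest change (3.48) and Il33, a cytokine of barrier cells, the smallest (-0.63). Without the libraries that stand apart 9 rose and 1 fell. The clusterin receptors Lrp8 (2.69) and Vldlr (1.11) both rose, and of 6 other connexins none rose and 3 fell.

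The Apc effect in tumours, over its own WT, was larger than at day 4 for Basp1 (3.96 ± 0.62, adjusted p = 0.000112) and Gja1 (0.88 ± 0.28, adjusted p = 0.0257), where 24.7% of genes tested were called. Clu differed by 3.12 ± 1.45 (adjusted p = 0.119), and by 5.3 ± 0.58 (adjusted p = 5.77e-06) without the libraries that stand apart. Msln differed by -0.17 ± 1.6 (adjusted p = 0.967). Without WT small intestine replicate 1 or 3 the difference of Gja1 was 0.88 and 0.83 and no longer called (adjusted p = 0.0562 and 0.0814). Fibroblast (5 of 8), endothelial (5 of 6) and immune markers (6 of 9) also had a larger effect in tumours, and their part was not tested. The WT groups differed too, without overlap. Gja1 stood at 21.6 to 26.2 CPM in WT small intestine and 28.1 to 49.7 CPM in that of day 4, and Basp1 at 4.45 to 6.26 CPM and 7.42 to 11 CPM. Apcfl/+ tumours overlapped Apcfl/fl in Gja1 (44.1 to 61.2 CPM against 18.0 to 52.7 CPM) and not in Basp1 (61.6 to 103 CPM against 3.00 to 31.8 CPM). The comparisons also differ in the Apc genotype and the strain background, which cannot be told apart from stage.

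Set in order over the 11 groups, the genes had different leading groups. The Clu means ran from 1790 ± 817 CPM (SD, n = 5) in Apcfl/+ tumours through 475 ± 264 CPM (SD, n = 4) in BA tumours and 223 ± 497 CPM (SD, n = 10) in Apcfl/fl to 17.5 CPM in WT proximal colon, and every neighbouring pair of groups in this order overlapped. The Basp1 means were led by Apcfl/+ tumours at 81.6 ± 19.4 CPM (SD, n = 5) and BA tumours at 31.6 ± 8.46 CPM (SD, n = 4), each without overlap with the next group, and then by WT small intestine at day 4 at 9.19 CPM. The Msln means were led by BA tumours at 212 ± 153 CPM (SD, n = 4), without overlap with Apcfl/+ tumours at 23.1 ± 9.44 CPM (SD, n = 5), and ended with d30 WT at 2.07 CPM. The Gja1 means ran only from 50.1 CPM in Apcfl/+ tumours to 23.9 CPM in WT small intestine, with overlap between all neighbours.

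Clu and Basp1 were the closest pair. Over the 53 libraries the Pearson correlation of their log2 CPM was 0.9, over the 11 group means 0.95, and within groups, after subtracting group means, 0.82. Without the 6 libraries that stand apart the last was 0.64 over 47 libraries. The libraries fall into tumours and non-tumours, and tissue and depth are shared between the genes of a library, so these are descriptions. Gja1 and Msln were the least alike (0.27 over the 53 libraries), and Clu and Msln lay between at 0.66.

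**Figure D4:**
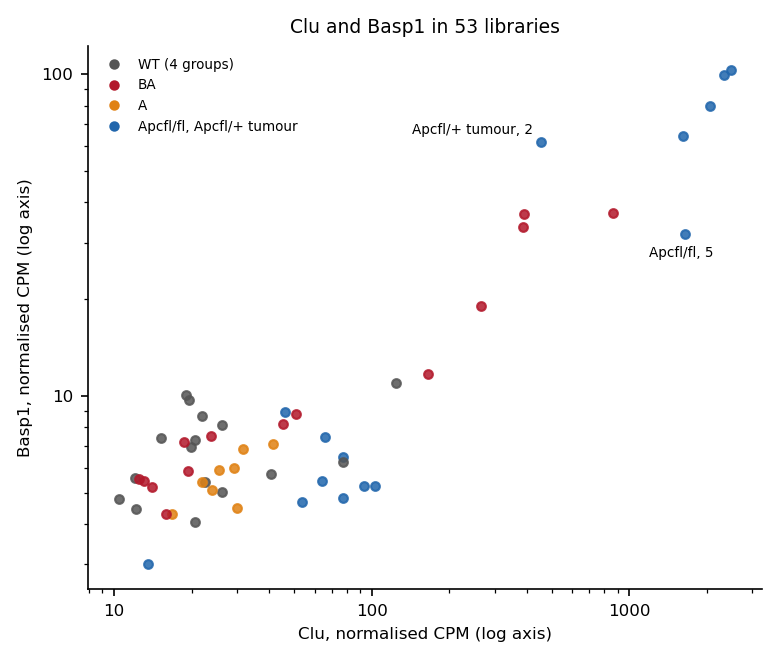
Normalised CPM of Clu (horizontal) and Basp1 (vertical), both on log axes, in each of the 53 libraries, coloured by genotype. The Apcfl/+ and BA tumours lie at the upper right, together with Apcfl/fl replicate 5 at 1640 CPM of Clu and 31.8 CPM of Basp1, and the other libraries crowd below 12 CPM of Basp1.

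Among 13832 genes with a mean log2 CPM of at least 1, those with patterns nearest to Clu over the 53 libraries were Plat, tissue plasminogen activator (r = 0.91), Basp1 (r = 0.9) and Ecscr, an endothelial surface protein (r = 0.89). Nearest to Basp1 were Clu, Stx11, a syntaxin of vesicle fusion (r = 0.89), and Adamts7, a matrix protease (r = 0.89). Nearest to Msln were Runx1, a transcription factor of blood formation (r = 0.82), Fam20c, a kinase of secreted proteins (r = 0.81), and Rab31, a GTPase of vesicle transport (r = 0.8). Nearest to Gja1 were Extl2 (r = 0.77), Selenon (r = 0.76) and Trim44 (r = 0.75), a lower likeness than for the other 3 genes. These values share tissue, genotype and library among their points.

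In WT tissue and in the A colon, which lacks Alk5 and was in part given sulindac, Msln followed the mesothelial markers. Over the 24 WT and A libraries, the correlation of log2(CPM + 1) of Msln with the list without Upk1b was 0.92, and 0.9 after leaving out the 2 libraries farthest from the median of the list. Over the 9 tumours it was 0.23. With Upk1b kept in the list it was 0.83 over the tumours and 0.82 over the WT and A libraries. The low value in tumours thus depends on leaving out Upk1b, a choice made after values were seen. The points share their library and its depth. Clu was highest among WT small intestine libraries in the same libraries whose follicle list was highest, replicate 4 at day 4 (124 CPM) and replicate 1 of the inbred group (77.3 CPM), while the Apcfl/fl library with a follicle level of 105 CPM had 46.1 CPM of Clu. The correlation of Clu with this list was 0.96 over the 9 WT small intestine libraries and 0.83 over the 24 WT and A libraries. Over the 9 tumours, BA and Apcfl/+ pooled, it was -0.91.

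**Figure D5:**
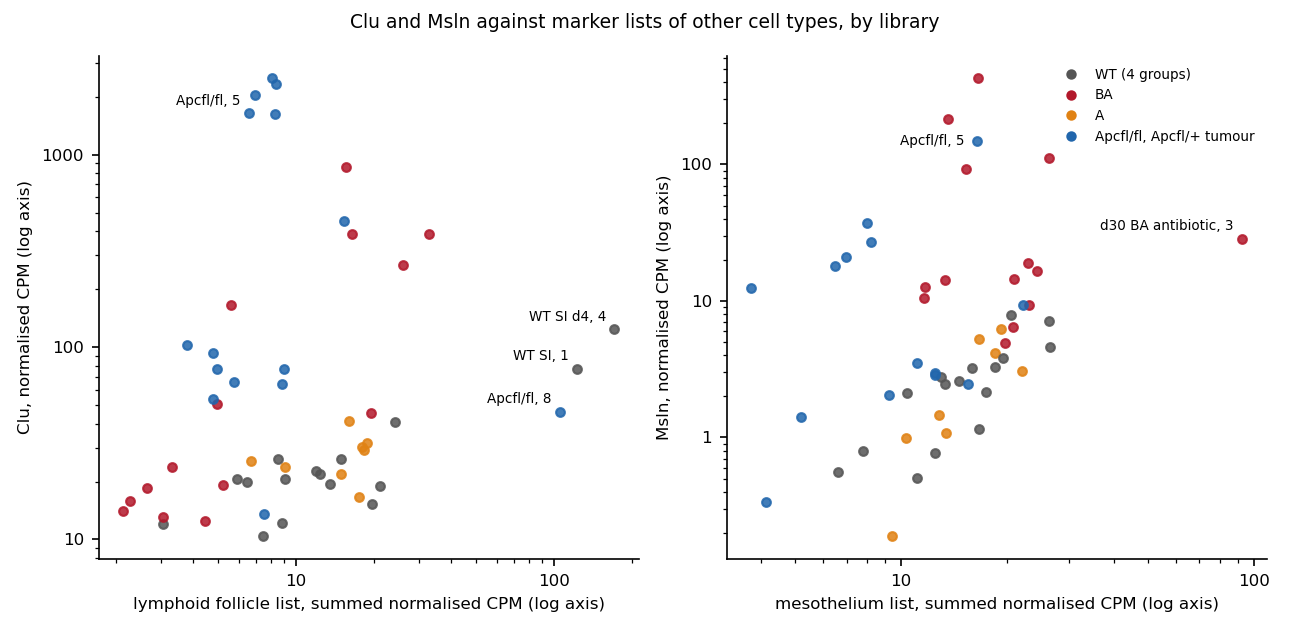
Left, normalised CPM of Clu against the summed normalised CPM of the 5 lymphoid follicle genes, and right, Msln against the summed mesothelial markers, on log axes with a point for each library (the library with 0 Msln reads is not drawn on the right). WT libraries with high Clu lie at the far right of the left panel, and BA tumours lie above the band of WT and A libraries in the right panel.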

How the data were processed

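RNA-seq counts of 53 mouse intestine libraries were used. Per the submitters' processing notes and the study's methods, the authors checked the paired 36-base reads with FastQC 0.11.8, trimmed them with Trim Galore 0.6.4, aligned them to GRCm38 with HISAT2 2.1.0, counted them on genes with featureCounts 1.6.4 and deposited raw counts without normalisation. How strand and reads with several matches were handled is not given in the sources used here. Of 55421 rows, 55154 have a symbol in GENCODE M21, and 0 columns were left out. Libraries were grouped by their labels, which do not name batch or sex.

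Each comparison was fitted on all genes with its own groups by edgeR 4.0.16 (filterByExpr, TMM, quasi-likelihood test), and differences of effects by an interaction term over 4 groups. The study used DESeq2, which is an alternative here (version 1.42.0). Normalised CPM use TMM factors over all libraries, and RPKM also divide by exon length. The floor of a library is 3 counts, which covers counting error only. The other alternatives were RLE scaling, all genes kept regardless of counts, a block for replicate number, a joint fit of the 5 groups at day 30, terms for Ddx3y and Gm13394 reads (over or under 10 CPM), CPM by library total and each library left out in turn. Calling was tested on simulated data in which 200 genes changed by a log2 of 2. edgeR called 61% of these for BA tumours, 94.5% for d30 BA, 89.5% for Apcfl/fl and 47.5% for BA minus Apcfl/+ tumours. Unchanged genes made up 8.27%, 5.03%, 3.76% and 2.06% of its calls. Of DESeq2 calls they made up 23.9% for BA tumours, 14.9% for d30 BA and 14.2% for Apcfl/fl.

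The 4 genes and all gene lists were chosen with earlier results of these data known. Some genes are not reported here and were left out of the lists. The lymphoid follicle list, the mesothelial list without Upk1b and the libraries that stand apart were chosen after values were seen. From each list, both extremes of the log2 fold change and at most 3 further called genes were to be named per comparison, and for each of the 4 genes the 3 with the most similar pattern. Genes named beyond this rule, as Marcks, Gap43, Vldlr, Gjb1, Gjb2, Ly6a, Ccn2 and Spp1 where they were not among these, were chosen after their values were seen. R 4.3.3, Python 3.11.15, pandas 2.3.3 and matplotlib 3.10.9 were used.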

Additional observations from a re-analysis of the deposited data

Results flagged for a closer look

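Of 36 sets of 1 gene in 1 group of 4 to 10 libraries, 6 held a library farther from its group than Dixon's 95% critical value, and chance alone flags about 5% of such sets. Clu stood at 1640 CPM in Apcfl/fl replicate 5, 124 CPM in WT small intestine at day 4 replicate 4 and 166 CPM in antibiotic replicate 3. Msln stood at 148 CPM and Basp1 at 31.8 CPM in the same Apcfl/fl replicate 5, and Msln at 28.6 CPM in the same antibiotic replicate 3. Each was the highest library of its group, and these 6 flags fell on only 3 libraries.

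Differences of effects between groups passed the interaction test (edgeR, adjusted p under 0.05) in 8 cases. Between BA and Apcfl/+ tumours, Msln differed by 4.13 and Basp1 by -1.57 on the log2 scale. Between BA tumours and d30 BA, Clu differed by 4.6, Gja1 by 1.22, Msln by 4.05 and Basp1 by 1.74. Between Apcfl/+ tumours and Apcfl/fl at day 4, Gja1 differed by 0.88 and Basp1 by 3.96.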

How the results depend on the processing

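RLE scaling (52 of 52 log2 fold changes), DESeq2 (48 of 48, the others having no adjusted p) and CPM by library total (44 of 44 levels) changed no direction or call of the 4 genes. Replicate numbers are shared between groups, and in no comparison did every same-numbered pair deviate together (correlations above 0.1). For d30 A against d30 WT 2 of 4 pairs did, for Apcfl/fl 2 of 6 and for d30 BA against d30 A 1 of 4. Whether same-numbered libraries share an origin cannot be told from these values. With the replicate block, 37 of 40 log2 fold changes kept their call and direction. Clu in Apcfl/fl was then 1.76 (adjusted p = 0.0969), Clu with antibiotics against d30 BA -0.12 and Gja1 with sulindac against d30 A -0.00059. The number of genes called was then 848 for BA tumours (main 2527), 8211 for Apcfl/+ tumours (main 12650), 1284 for antibiotics against d30 BA (main 2172), 2 for d30 A sulindac against d30 WT (main 9) and 1 for sulindac against d30 A (main 0).

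Without the low-count filter Gja1 was 0.87 (adjusted p = 0.0579) for Apcfl/+ tumours minus Apcfl/fl and -0.0041 for sulindac against d30 A, and 72 genes were called for d30 A, 24 for d30 A sulindac and 1 for sulindac against d30 A. DESeq2 called 132, 108 and 7 genes there, against 25, 9 and 0. With all 5 day-30 groups in 1 fit Basp1 in d30 BA was 0.54 (adjusted p = 0.0768), Gja1 with sulindac against d30 A -0.0026, and 29 genes were called for d30 A sulindac and 1074 for antibiotics against d30 BA. With a Ddx3y term Clu in Apcfl/fl was 1.41, Gja1 in Apcfl/fl -0.08 and Msln in Apcfl/+ tumours 2.61, and 168 genes were called for BA tumours and 7030 for Apcfl/+ tumours. With a Gm13394 term Clu in Apcfl/fl was 1.99. These terms could not be fitted at day 30. The causes were not tested.

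Without the libraries that stand apart, chosen after the data were seen, Clu was -0.82 with antibiotics against d30 WT, -0.99 against d30 BA, -2.39 for BA minus Apcfl/+ tumours and 5.3 for Apcfl/+ tumours minus Apcfl/fl, Msln was 2.73 (adjusted p = 0.0524) for the last of these, and Basp1 in Apcfl/fl was -0.65. Of 6 counts of genes called, all 6 were within 1.5 times.

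With each library left out in turn, 531 of 588 log2 fold changes kept their direction and call. The others lay within these ranges. For d30 BA, Clu ran from -0.1 to 0.4 and Basp1 from 0.44 to 0.61. For antibiotics against d30 WT, Clu ran from -0.82 to 1.02. For d30 A, Clu ran from -0.05 to 0.31 and Msln from -0.25 to 0.46, and for d30 A sulindac Clu from -0.31 to 0.21. For Apcfl/fl, Clu ran from 0.78 to 3.39, Gja1 from -0.05 to 0.13, Msln from -0.03 to 2.98 and Basp1 from -0.65 to -0.05, the lowest of Clu, Msln and Basp1 without Apcfl/fl replicate 5. For Apcfl/+ tumours, Msln ran from 1.9 to 3.28. For d30 BA against d30 A, Clu ran from -0.12 to 0.37. For antibiotics against d30 BA, Clu ran from -0.99 to 0.87, Gja1 from 0.23 to 0.38 and Basp1 from -0.39 to 0.05. For sulindac against d30 A, Clu ran from -0.38 to 0.1, Gja1 from -0.1 to 0.09, Msln from -0.0033 to 0.94 and Basp1 from -0.17 to 0.09. For BA minus Apcfl/+ tumours, Clu ran from -2.39 to -0.43 and Gja1 from -0.62 to -0.39 (called in 8 of 15 fits). For Apcfl/+ tumours minus Apcfl/fl, Clu ran from 2.23 to 4.82, Gja1 from 0.79 to 0.97 and Msln from -0.67 to 2.37. The numbers of genes called ran from 696 to 3641 for BA tumours, 15 to 28 for d30 A, 4 to 18 for d30 A sulindac, 1300 to 2683 for antibiotics against d30 BA, 2225 to 5051 for BA tumours minus d30 BA and 3603 to 7295 for Apcfl/+ tumours minus Apcfl/fl. The count for BA tumours was 696 without WT proximal colon replicate 1, 1089 without its replicate 3 and 1380 without BA tumour replicate 4. The lowest counts came without antibiotic replicate 5 (1300), WT proximal colon replicate 3 (2225) and WT small intestine replicate 3 (3603). For d30 A the count was 15 or 16 without d30 WT replicates 2, 3 or 4, and for d30 A sulindac 4 or 5 without a d30 WT library and 18 without sulindac replicate 1.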
